A study of Homo sapiens with 9 samples.

Results

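The HSD17B genes encode dehydrogenases named for their action on steroids, and 7 of them are described here: HSD17B10, HSD17B1, HSD17B2, HSD17B4, HSD17B8, HSD17B11 and HSD17B12. They were taken from the deposited table by gene symbol, with older aliases of HSD17B10, HSD17B8 and HSD17B11 included, and each had 1 probe set, so that 7 of 11963 gene symbols on the array are covered. HSD17B10 was selected on its intensity, which was high with both hairpins in these same arrays, and the other 6 were chosen by their names as its family. Its differences from the control line are therefore given as a description, without a test.

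The cells were MDA-MB231, an established line of human breast cancer that lacks estrogen and progesterone receptors and ERBB2 amplification. All 3 lines carried an integrated lentiviral pLKO hairpin vector. The scramble line had a control hairpin, and the shco2 and shco4 lines each had a different hairpin against Coco, a secreted antagonist of BMP and Nodal ligands encoded by DAND5. Each line was measured on 3 arrays labelled as biological replicates. The labels give 10% serum for every sample. Whether these came from separate transductions or cultures is not stated, and whether a line is 1 clone or a pool is not stated either, so the p-values measure the spread between these arrays.

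As background, most HSD17B proteins belong to the short-chain dehydrogenase and reductase family, and several act mainly on fatty acids rather than on steroids. HSD17B10 is a mitochondrial enzyme that oxidises a hydroxyacyl-CoA in the breakdown of isoleucine, and it is also a subunit of mitochondrial RNase P, the complex that cuts the 5′ ends of mitochondrial tRNAs. In breast tissue the family is best known for HSD17B1, which makes estradiol from estrone, and for HSD17B2, which works in the opposite direction.

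The median intensity was 122.5 to 129.6 per array. Pearson r across probe sets was 0.986 to 0.992 between arrays of a line and 0.960 to 0.980 between lines. All 7 markers of the line (VIM, CD44, CAV1, MSN, AXL, SNAI2 and FOSL1) were above 64 on every array, and 3 of 7 luminal markers (ESR1, PGR and FOXA1) and 4 of 7 fibroblast markers (DCN, COL3A1, THY1 and FAP) were below 64 on every array. The luminal markers KRT19 (2107 to 5848), ERBB2 (515 to 803) and GATA3 (437 to 683) were above 64 on every array. So was the fibroblast marker COL1A1 (146 to 216). CDH1, LUM and PDGFRB were above 64 on some arrays. The summed intensity of the fibroblast markers was 285 to 369 in scramble, 298 to 353 with shco2 and 486 to 601 with shco4, that of the luminal markers 5671 to 7372, 3258 to 3272 and 5715 to 6272, and that of the line's own markers 46448 to 47499, 31150 to 33230 and 36491 to 39622. The part of these shifts in the results below was not tested. The annotation names no probe set for DAND5, and the extent of its knockdown was not analysed here.

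HSD17B10 was high in both hairpin lines and at nearly the same level in each. Its intensity was 637, 683 and 610.4 on the scramble arrays, 2321, 2533 and 2489.6 on the shco2 arrays, and 2426, 2624 and 2666 on the shco4 arrays. All 6 hairpin arrays lay above all 3 scramble arrays, with no overlap, and the arrays of a line differed little. Scramble had a mean log2 intensity of 9.33 ± 0.081, shco2 one of 11.26 ± 0.067 and shco4 one of 11.33 ± 0.073 (each SD, n = 3). In log2 units, shco2 exceeded scramble by 1.93 ± 0.058 and shco4 by 2.00 ± 0.058 (SE of the fit), or 3.81-fold and 4.00-fold. Leaving out each array in turn moved these differences only within 1.89 to 1.97 and within 1.96 to 2.04.

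**Figure D1:**
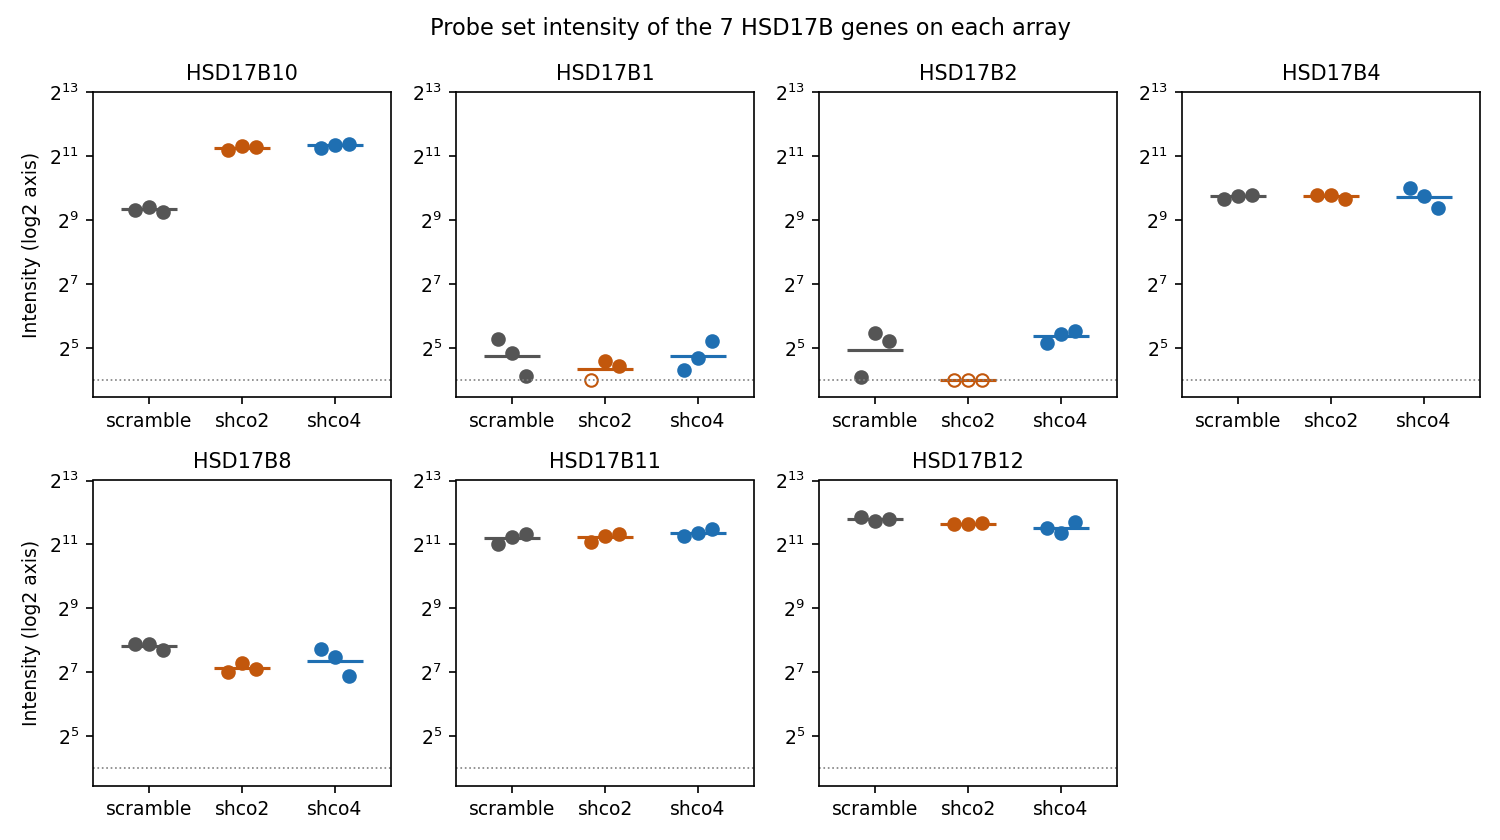
Each panel plots the probe set intensity of 1 gene on a log2 axis, with a point for each of the 9 arrays, a bar at the mean log2 value of each line and a dotted line at the floor of 16; open points were below the floor and are drawn on it. The 6 hairpin points of HSD17B10 lie between 2321 and 2666, above its scramble points of 610.4 to 683, and no other panel shows such a step in both hairpin lines.

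Few probe sets on the array differed from scramble by as much. HSD17B10 was selected for its high level in these same arrays, so its rank is a description and not a test. A log2 difference at least as large as that of HSD17B10 was seen for 19 of 22215 probe sets with shco2 and for 41 with shco4, HSD17B10 included. By the smaller of the 2 differences, only 1 other probe set reached the level of HSD17B10, which makes 2 of 22215. Calls with both hairpins in 1 direction (limma, adjusted p under 0.05 for each) covered 2.35% of probe sets for higher and 2.24% for lower levels, and on 5.37% of probe sets every hairpin array was above every scramble array. Both comparisons use the same 3 scramble arrays, so a level shared by the hairpin lines cannot be told apart from a level particular to the scramble line.

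The hairpin lines differed from each other in HSD17B10 by 0.07 ± 0.058 on the log2 scale (shco4 less shco2), with a 95% interval of -0.07 to 0.21. Their arrays overlapped.

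The sequences before the start sites of HSD17B10, HSD17B8 and HSD17B4 are shown because these are the member with the large step, a member that was lower on every shco2 array and a member whose mean hardly moved. RefSeq tables (GRCh38.p14) held a window for 4 of the 7 members. The 250 bases before the start were searched on both strands for the Smad binding element with the letters CAGAC, a GC-rich Smad motif with GGCGCC, the CCAAT box, the GC box with GGGCGG, the TATA box with TATAAA, and the E-box with CACGTG, which do not overlap in these windows. Capitals mark the matches, which read as the reverse complement where the motif lies on the other strand, and each sequence is given 5′ to 3′ on the strand of its gene.
HSD17B10 (chrX:53434377-53434626, minus strand): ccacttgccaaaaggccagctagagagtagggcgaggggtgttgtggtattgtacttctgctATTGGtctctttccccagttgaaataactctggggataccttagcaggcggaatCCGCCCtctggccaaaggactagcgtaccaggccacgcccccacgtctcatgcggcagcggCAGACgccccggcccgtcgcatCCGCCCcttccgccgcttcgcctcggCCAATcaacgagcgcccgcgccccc
HSD17B8 (chr6:33204405-33204654, plus strand): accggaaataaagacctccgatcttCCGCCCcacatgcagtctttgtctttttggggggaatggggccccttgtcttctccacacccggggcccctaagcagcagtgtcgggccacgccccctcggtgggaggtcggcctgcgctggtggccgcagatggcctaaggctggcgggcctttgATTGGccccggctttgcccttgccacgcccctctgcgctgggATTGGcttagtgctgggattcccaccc
HSD17B4 (chr5:119452247-119452496, plus strand): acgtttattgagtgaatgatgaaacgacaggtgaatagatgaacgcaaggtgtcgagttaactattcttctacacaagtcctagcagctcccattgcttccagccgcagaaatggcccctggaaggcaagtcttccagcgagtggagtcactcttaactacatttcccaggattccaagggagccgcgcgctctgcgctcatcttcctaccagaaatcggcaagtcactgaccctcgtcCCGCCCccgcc

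The HSD17B10 window held 2 CCAAT boxes, 2 GC boxes and 1 Smad binding element, and its GC content was 63.2%. HSD17B8 held 2 CCAAT boxes and 1 GC box at 64.8% GC, and HSD17B4 held 1 GC box at 52.8% GC. The median GC content over the windows of 27305 genes was 58%. A CCAAT box stood in 33% of those windows, a GC box in 42.3% and a Smad binding element in 37.8%, so each motif of the HSD17B10 window is a common one. The GC-rich Smad motif, the TATA box and the E-box, which stood in 16.1%, 11.1% and 6.49% of all windows, had no match in the 3 sequences. The fourth window, that of HSD17B11, held 1 Smad binding element and 1 CCAAT box at 56% GC.

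In the main fit, which had 1 mean per line, none of the other 6 members was called higher than scramble with either hairpin. With a replicate block, HSD17B11 was called higher with shco4 (log2 difference 0.17, limma adjusted p = 0.0226). The share of all probe sets called with the block is not given here, and the shares below are those of the main fit. By limma, 0 of 6 passed an adjusted p under 0.05 with shco2, where 20.7% of all probe sets were called (10.7% higher, 9.95% lower), and 0 of 6 passed with shco4, where 18.8% were called (9.05% higher, 9.75% lower). With so few members and these shares, a count of 0 is near the background. At an unadjusted p under 0.05, 0 were higher and 2 lower with shco2 (HSD17B2 and HSD17B8), and 0 were higher and 1 lower with shco4 (HSD17B12). The median log2 difference of the 6 was -0.27 with shco2 and -0.01 with shco4, beside 0 over all probe sets. The highest upper bound of their 95% intervals was 0.46 with shco2 (HSD17B1) and 1.26 with shco4 (HSD17B2), both below the log2 differences of HSD17B10.

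**Figure D2:**
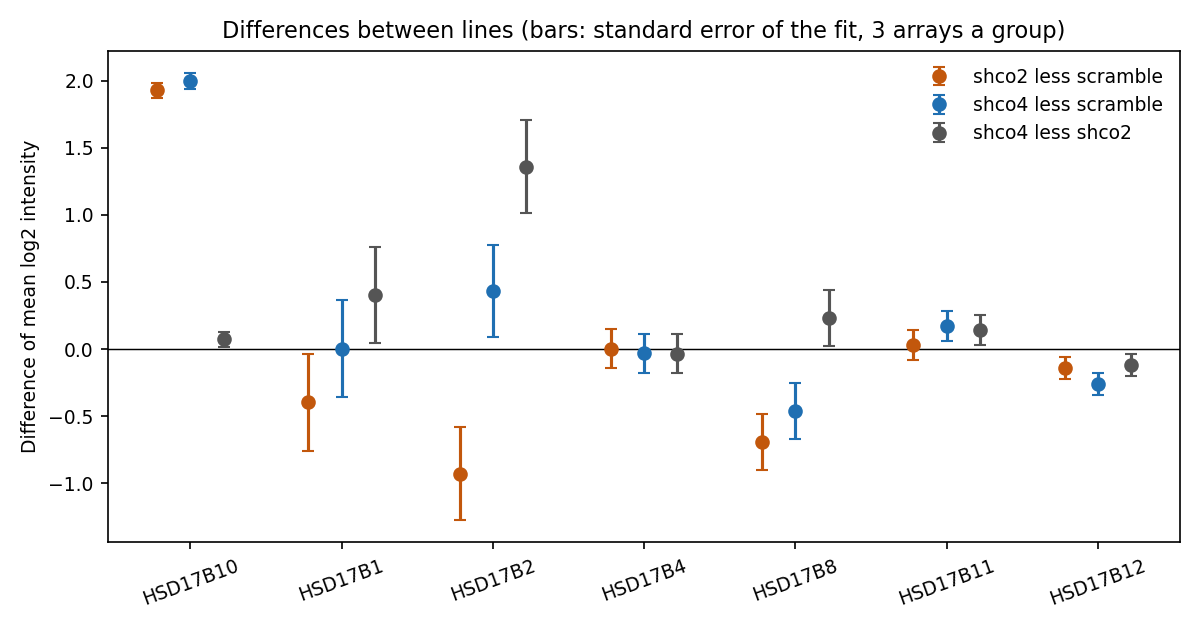
The plot gives the difference of mean log2 intensity for each of the 7 genes (shco2 less scramble, shco4 less scramble, shco4 less shco2), with the standard error of the fit as bars. The points of HSD17B10 against scramble lie at 1.93 and 2.00, and those of the other 6 genes lie between -0.93 and 0.43.

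HSD17B8, a subunit of the mitochondrial ketoacyl-ACP reductase, was lower on every shco2 array. Its intensity was 237, 238 and 209 in scramble, 128, 157 and 139 with shco2, and 212, 179 and 119.6 with shco4. The shco2 arrays did not overlap with scramble, whereas 1 shco4 array was within the scramble range and 1 was below all shco2 arrays. The log2 difference was -0.69 ± 0.21 with shco2 (SE, n = 3; limma adjusted p = 0.0631) and -0.46 ± 0.21 with shco4 (adjusted p = 0.197). The shco2 difference was called in the fit of those 2 lines alone (adjusted p = 0.0155), with dim probe sets left out (0.0201), with median centring (0.0402), and without shco4 replicate 1 (0.0401) or 3 (0.0104). The shares of all probe sets called in those fits are not given beside these calls. On 35.8% of all probe sets the arrays of shco2 and scramble did not overlap.

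CBR4, the carbonyl reductase that forms that same complex with HSD17B8, differed in the other direction. It rose with shco2 by 0.56 ± 0.15 (limma adjusted p = 0.0441) and with shco4 by 1.27 ± 0.15 (adjusted p = 0.00284), from 137 to 184 in scramble to 195 to 257 and 333 to 387. The shco2 call was lost in 7 of the 9 fits that left out 1 array (adjusted p up to 0.128), in the fit of those 2 lines (0.0969) and with floors of 64 (0.0515) and 1 (0.0539), and the shco4 call in none of these. Of the other genes of mitochondrial fatty acid synthesis measured here, NDUFAB1, the acyl carrier protein, rose with shco2 by 0.42 (adjusted p = 0.00937) and differed by 0.02 with shco4, while MECR (-0.04 and -0.11) and OXSM (-0.19 and -0.02) passed with neither. These 4 genes had medians of 0.19 with shco2 and 0.00 with shco4.

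HSD17B4, the peroxisomal multifunctional enzyme of beta-oxidation, had almost the same mean in all 3 lines. Its intensity was 810.1, 868 and 878 in scramble, 871, 886 and 804 with shco2, and 1018, 852 and 667 with shco4. All 3 lines overlapped, and the shco4 arrays spread most widely. The log2 difference was 0.00 ± 0.15 with shco2 (95% interval -0.35 to 0.35) and -0.03 ± 0.15 with shco4 (-0.38 to 0.32).

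Of 11 measured genes of peroxisomal fatty acid oxidation, 0 rose and 1 fell with shco2, where 10.7% and 9.95% of all probe sets did. With shco4, 1 rose and 3 fell, where 9.05% and 9.75% did. The list's median log2 difference was -0.04 with shco2 and -0.07 with shco4. ACOX2, the branched-chain acyl-CoA oxidase, fell with both, by 0.92 ± 0.13 (limma adjusted p = 0.00405) and by 1.37 ± 0.13 (adjusted p = 0.00127). The others called with shco4 were DECR2, which rose, and PEX5 and ACOX3, which fell. The ACOX3 call was not kept in every fit that left out 1 array, and the count that fell was 2 without scramble replicate 2 or 3 or shco4 replicate 2, and with a floor of 1. ACAA1, a peroxisomal thiolase, differed by -0.02 and 0.39, and its 2 probe sets differed in direction with shco4. Its shco4 difference (limma adjusted p = 0.0721) was called with a replicate block (0.0499), quantile normalization (0.0452), median centring (0.0277) and dim probe sets left out (0.0418).

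HSD17B12, the ketoacyl-CoA reductase of fatty acid elongation in the endoplasmic reticulum, was slightly lower on all 6 hairpin arrays. Its intensity was 3686, 3386 and 3551 in scramble, 3177, 3158 and 3287 with shco2, and 2909, 2653 and 3349 with shco4. No hairpin array reached the lowest scramble array, a pattern in that direction seen on 5.01% of all probe sets. The log2 difference was -0.14 ± 0.083 with shco2 (limma adjusted p = 0.324) and -0.26 ± 0.083 with shco4 (adjusted p = 0.0793). Without shco4 replicate 3, the array nearest to scramble, the shco4 difference was -0.35 and was called (adjusted p = 0.0127).

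The partners of HSD17B12 in elongation were followed as well. Of 7 measured genes, 0 rose and 2 fell with shco2 (ELOVL5 and HACD2), where 10.7% and 9.95% of all probe sets did. With shco4, 1 rose (ELOVL5) and 0 fell, where 9.05% and 9.75% did. The medians were -0.31 and 0.12. The HACD2 call was lost with a floor of 1 and in 7 of the 9 fits that left out 1 array, those without a scramble array, a shco2 array or shco4 replicate 2. ELOVL5, an elongase of polyunsaturated fatty acids, fell with shco2 by 0.45 ± 0.02 (limma adjusted p = 0.000194) and rose with shco4 by 0.28 ± 0.02 (adjusted p = 0.000987) at its brightest probe set. A dimmer probe set of ELOVL5 rose with both, by 1.30 and 0.82, so its probe sets disagree, and the shco4 call ended with a floor of 1 (adjusted p = 0.0629). TECR, the enoyl reductase of the cycle (0.02 and 0.14), and HACD3, a dehydratase (0.13 and 0.12), passed with neither hairpin.

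HSD17B11, a dehydrogenase of lipid droplets, was bright in all lines. Its intensity was 2058, 2418 and 2583 in scramble, 2139, 2462 and 2587 with shco2, and 2458, 2632 and 2839.7 with shco4. All 3 lines overlapped. The log2 difference was 0.03 ± 0.11 with shco2 (95% interval -0.24 to 0.29) and 0.17 ± 0.11 with shco4 (limma adjusted p = 0.379). Each hairpin array was above the scramble array of the same number. With a replicate block, the same shco4 difference had a standard error of 0.0303 and was called (limma adjusted p = 0.0226). The block also called shco4 higher than shco2, by 0.14 (limma adjusted p = 0.0239).

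HSD17B1 and HSD17B2, the pair best known for estrogen activation and inactivation, were dim on every array. HSD17B1 had intensities of 38.4, 28.6 and 17.3 in scramble, 4.34, 23.9 and 21.7 with shco2, and 19.98, 25.8 and 37.2 with shco4. The lines overlapped, and the log2 difference was -0.40 ± 0.36 and 0.00 ± 0.36 (95% intervals -1.26 to 0.46 and -0.86 to 0.86), which are wide at this signal.

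HSD17B2 had intensities of 17.1, 44.6 and 37.2 in scramble, 11.8, 6.2 and 0.575 with shco2, and 35.3, 42.8 and 45.8 with shco4. All 3 shco2 arrays were below the floor of 16, and all 3 shco4 arrays were above it. With shco4 it was at least 2.57-fold higher than with shco2 (limma adjusted p = 0.0244), and this was the 1 call among the 6 members in that comparison, where 31.0% of all probe sets were called. The call ended without shco2 replicate 1 (0.0678), 2 (0.0681) or 3 (0.0686) and without shco4 replicate 2 (0.0702) or 3 (0.0731), and with a floor of 64 every array was at the floor. Against scramble the log2 differences were -0.93 and 0.43 (adjusted p = 0.117 and 0.481). Scramble replicate 1 lay close to the floor, and without it the difference with shco2 was -1.35 and was called (adjusted p = 0.00422).

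Of the HSD17B genes beside these 7, 4 were measured. HSD17B7, which reduces a sterol intermediate in cholesterol synthesis, had intensities of 417, 399.9 and 593 in scramble, 385, 494 and 581 with shco2, and 776, 825 and 1075 with shco4. Every shco4 array was above every array of the other lines. Over all probe sets, 32.6% had no overlap between shco4 and scramble and 40.9% had none between the hairpin lines. It rose with shco4 by 0.93 ± 0.23 (limma adjusted p = 0.0328) and differed with shco2 by 0.05 ± 0.23 (95% interval -0.49 to 0.60). The shco4 call was lost in 6 of the 9 fits that left out 1 array (adjusted p up to 0.104) and in the fit of those 2 lines alone (0.0631). Its probe set is of a type that can also bind related transcripts, and the gene has a pseudogene copy.

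HSD17B6, which oxidises androgens, was dim, at 29.2 to 36.0 in scramble, 46.5 to 55.2 with shco2 and 1.35 to 19.8 with shco4. The lines did not overlap at this probe set, and it rose with shco2 by 0.71 ± 0.12 (limma adjusted p = 0.00859) and fell with shco4 by 0.85 ± 0.12 (adjusted p = 0.00522). For 1 pair of lines at a time, 32.6% to 40.9% of all probe sets had no overlap. Both calls ended with a floor of 64, which left every array at the floor, and with a floor of 1 (0.672 and 0.192). Its second probe set was called with shco2 and not with shco4. HSD17B3 was below the floor on most arrays (-0.23 and 0.05), and HSD17B14 differed by -0.35 and 0.02, and neither passed.

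Among genes of steroid hormone metabolism, the aldo-keto reductases of the AKR1C group were lower. Of 14 measured genes, 0 rose and 6 fell with shco2, where 10.7% and 9.95% of all probe sets did. With shco4, 2 rose and 2 fell, where 9.05% and 9.75% did. The medians were -0.34 and 0.03. AKR1C3, which also carries the older name HSD17B5 and reduces steroid ketones, had intensities of 3001, 2447 and 2686 in scramble, 1566, 1588 and 1400.0 with shco2, and 2356, 2346 and 2136 with shco4. Every array of both hairpin lines was below every scramble array, as on 5.01% of all probe sets, and shco2 was the lowest line. AKR1C3 fell with shco2 by 0.83 ± 0.088 (limma adjusted p = 0.00166) and differed with shco4 by -0.25 ± 0.088 (adjusted p = 0.11).

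AKR1C1 fell by 1.16 ± 0.19 and 0.997 ± 0.19 (limma adjusted p = 0.00777 and 0.0156), and AKR1C2 fell by 1.44 ± 0.15 and 1.20 ± 0.15 (adjusted p = 0.00165 and 0.00346). These 2 genes are near-identical copies and their probe sets can share signal, so they do not count as separate measurements. Another AKR1C1 probe set was called with neither hairpin (-0.41 and -0.24). The AKR1C1 call with shco4 ended without scramble replicate 1 (0.0537). STS, the steroid sulfatase, differed by 0.21 and 0.06 at its brightest probe set and passed with neither in the main fit. With a replicate block, its shco2 difference was called (limma adjusted p = 0.00635). In the main fit, another of its 4 probe sets fell with shco2 by 1.18 (adjusted p = 0.00164). The other genes called with shco2 were SRD5A1, HSD3B1 and CYP1B1, all lower, and with shco4 they were SRD5A1 and CYP1B1, both higher. Calls kept in all 9 fits that left out 1 array were AKR1C1, AKR1C2, AKR1C3 and CYP1B1 with shco2, and AKR1C2 and SRD5A1 with shco4. The shco2 count was 4 without scramble replicate 3 or shco2 replicate 1 or 3, and the shco4 count of 4 was 2 without scramble replicate 1.

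The genes that work beside HSD17B10 were followed next. Of 7 measured genes of mitochondrial tRNA processing and RNA handling, 3 rose (ELAC2, TFAM and MTPAP) and 0 fell with shco2. Over all probe sets, 10.7% rose and 9.95% fell. With shco4, 0 were called by limma, beside 18.8% of all probe sets, and 1 (ELAC2) was called with a replicate block. The medians were 0.19 and 0.19. Of the shco2 calls, MTPAP was kept in all 9 fits that left out 1 array, and the count was 1 without shco2 replicate 3 and 2 without scramble replicate 2 or shco2 replicate 1 or 2. PRORP, the nuclease subunit of mitochondrial RNase P, had intensities of 86.3, 70.6 and 103 in scramble, 98.7, 104 and 90.6 with shco2, and 97.8, 106 and 101 with shco4. Its lines overlapped, and the log2 differences were 0.19 ± 0.13 and 0.25 ± 0.13 (95% intervals -0.13 to 0.51 and -0.07 to 0.57), which lie below those of HSD17B10.

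ELAC2, which cuts the 3′ ends of tRNAs, moved apart in the 2 lines. Its intensity was 773, 677 and 737 in scramble, 1125, 1052 and 1200.1 with shco2, and 486, 485 and 651 with shco4, with no overlap between the lines. Taking 1 pair of lines at a time, 32.6% to 40.9% of all probe sets had no overlap. It rose with shco2 by 0.63 ± 0.13 (limma adjusted p = 0.0158) and differed with shco4 by -0.44 ± 0.13 (adjusted p = 0.0564, or 0.0401 with a replicate block). Leaving out scramble replicate 2 (0.0547), shco2 replicate 1 (0.0509) or shco2 replicate 3 (0.057) ended the shco2 call. The shco4 difference was called without shco4 replicate 3 (0.00812) and with dim probe sets left out (0.0292). The second probe set of ELAC2 was called with neither hairpin.

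The breakdown of branched-chain amino acids is the pathway in which HSD17B10 takes part. Of 17 measured genes, 0 rose and 4 fell with shco2 (ACAT1, MCCC2, AUH and ALDH6A1), where 10.7% and 9.95% of all probe sets did. With shco4, 0 rose and 1 fell (PCCB), where 9.05% and 9.75% did. The medians were 0.07 and -0.03. Of these calls, only MCCC2 and ALDH6A1 with shco2 were kept in every fit that left out 1 array. The shco2 count was 2 without any 1 of the scramble arrays or without shco2 replicate 1 or 2, and the shco4 count was 0 without scramble replicate 1 or 2 or shco4 replicate 2. The shco4 count that rose was 1 with a replicate block and without shco4 replicate 1. The shco4 count that fell was 2 with dim probe sets left out and without shco2 replicate 1. On the isoleucine branch, ACADSB, an acyl-CoA dehydrogenase, differed by -0.54 and -0.37 and ECHS1, the hydratase just before HSD17B10, by 0.14 and -0.04, and none of these passed, although ECHS1 with shco2 did with quantile normalization (0.0283) and without shco2 replicate 3 (0.018). ACAT1, the thiolase just after it, was at 3675, 3760.2 and 3691 in scramble, 3365, 3340 and 3436 with shco2, and 3707, 3616 and 3911 with shco4. It fell with shco2 by 0.13 ± 0.03 (limma adjusted p = 0.0224) and differed by 0.01 with shco4. The ACAT1 call was lost in 5 of the 9 fits that left out 1 array (adjusted p up to 0.0735), with median centring (0.256), with a floor of 1 (0.335) and with dim probe sets left out (0.223). BCKDHA, a subunit of the branched-chain ketoacid dehydrogenase, differed by -0.36 and 0.46 and did not pass.

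Genes of mitochondrial fatty acid oxidation were mostly higher with shco4. Of 15 measured genes, 2 rose and 1 fell with shco2, beside 10.7% and 9.95% of all probe sets. With shco4, 8 rose and 1 fell, beside 9.05% and 9.75% of all probe sets. The medians were 0.07 and 0.39. With each array left out in turn, 8 of the 9 shco4 calls were kept. HADHB, a subunit of the trifunctional protein, rose with shco4 by 0.58 ± 0.094 (limma adjusted p = 0.00782), and the other subunit, HADHA, by 0.39 ± 0.08 (adjusted p = 0.0183), although the HADHA call was lost without scramble replicate 2 (0.0641) or 3 (0.0525) and with a floor of 1 (0.0508). With shco2 HADHA fell by 0.34 (adjusted p = 0.0288), a call lost in 6 of the 9 fits that left out 1 array (adjusted p up to 0.0889) and with a floor of 1 (0.077). The other 2 HADHA probe sets were called with neither. ACADM, the medium-chain dehydrogenase, rose with shco2 by 0.45 (adjusted p = 0.0169) and differed with shco4 by -0.25 (adjusted p = 0.124, or 0.0476 with a replicate block).

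HADH, another mitochondrial hydroxyacyl-CoA dehydrogenase, went the opposite way from HSD17B10 with shco4. Its intensity was 1189, 1167 and 1273 in scramble, 928, 1115 and 1071 with shco2, and 669, 654 and 694 with shco4. The shco4 arrays lay below all others, and the shco2 arrays were below scramble as well. Every hairpin array was below every scramble array on 5.01% of all probe sets. HADH fell with shco4 by 0.85 ± 0.073 (limma adjusted p = 0.001) and differed with shco2 by -0.22 ± 0.073 (adjusted p = 0.08). Of its other 2 probe sets, 1 was called lower with both hairpins (-0.33, adjusted p = 0.0283, and -0.90, adjusted p = 0.00106), and the other was called with neither (0.18 and -0.21).

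Of 24 other short-chain dehydrogenases and reductases, 5 rose and 2 fell with shco2, where 10.7% and 9.95% of all probe sets did, and 6 rose and 4 fell with shco4, where 9.05% and 9.75% did. The medians were 0.10 and -0.10. With each array left out in turn, 1 of the 7 shco2 calls was kept (GMDS) and 7 of the 10 shco4 calls were. The count of higher genes with shco2 was 0 to 4 in those fits, with 0 without shco2 replicate 2, and that with shco4 was 3 without scramble replicate 1 or 2. GMDS, which acts on GDP-mannose, fell by 0.89 ± 0.11 and 0.76 ± 0.11 (limma adjusted p = 0.00289 and 0.00574). DHRS7 rose by 0.74 ± 0.18 and 0.80 ± 0.18 (adjusted p = 0.0337 and 0.0271), calls lost in 7 and 6 of the 9 fits that left out 1 array (adjusted p up to 0.103 and 0.0798), and with shco4 in the fit of those 2 lines (0.0898). Its second probe set was called with shco2 and not with shco4. CBR1, a carbonyl reductase, rose with shco2 by 0.33 (adjusted p = 0.0383, but 0.0895 with a floor of 1, 0.0769 in the fit of those 2 lines, and lost in 6 of the 9 fits that left out 1 array, up to 0.107) and differed by -0.23 with shco4, a difference called without scramble replicate 3 (0.0168). CBR3 differed by -0.18 and -0.32 and passed with neither, but did with shco4 under a replicate block (0.0246). HPGD, the prostaglandin dehydrogenase, differed by -0.86 and 0.64 near the floor; neither passed, but the shco4 difference passed without scramble replicate 3 (0.0499).

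**Figure D3:**
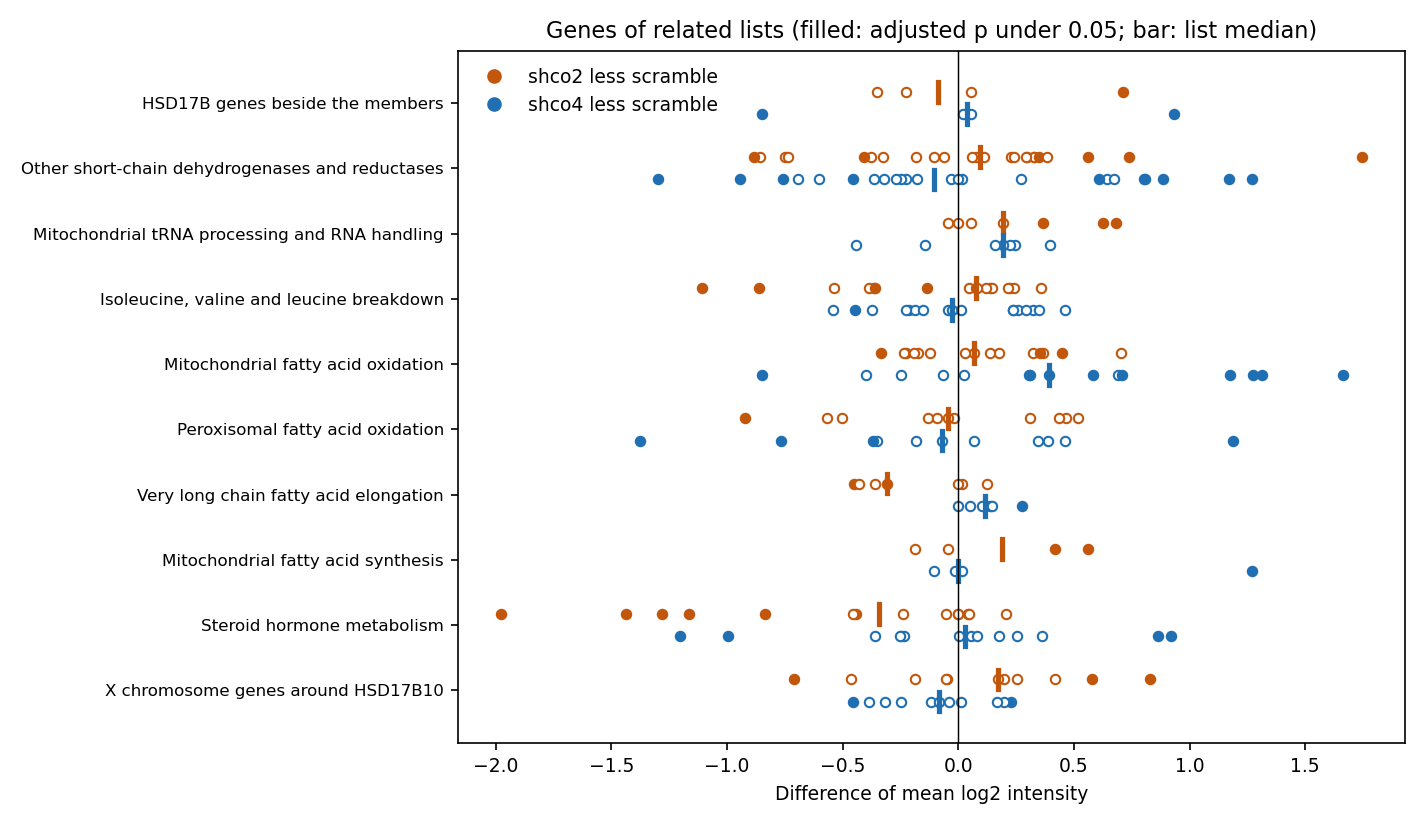
Each point is 1 gene of a related list, at its difference of mean log2 intensity from scramble, with shco2 above and shco4 below in each list; filled points had an adjusted p under 0.05, and vertical bars mark list medians. Mitochondrial fatty acid oxidation has its shco4 median at 0.39, and no gene in any list reaches the differences of HSD17B10 with both hairpins.

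The genes around HSD17B10 on the short arm of X did not share its step. Of 11 measured neighbours, 2 rose and 1 fell with shco2 (TSR2 and FGD1 rose, KDM5C fell) and 1 rose and 1 fell with shco4 (HUWE1 rose, FGD1 fell), with medians of 0.17 and -0.09. These counts are near the 20.7% and 18.8% of all probe sets called in either direction. SMC1A, a cohesin subunit and the nearest measured gene on one side, differed by 0.20 ± 0.11 and -0.39 ± 0.11 (limma adjusted p = 0.29 and 0.0535); the shco4 difference was called with a replicate block (0.00926), with dim probe sets left out (0.0339) and without scramble replicate 1 (0.0434). HUWE1, a ubiquitin ligase and the nearest measured gene on the other side, differed by -0.05 ± 0.021 with shco2 and rose by 0.23 ± 0.021 with shco4 (adjusted p = 0.185 and 0.0012). Its shco4 call ended with quantile normalization (0.128) and with a floor of 1 (0.104), and its other 3 probe sets were not called. The probe set used is of a type that can also bind related transcripts. It read 12138 to 15271 over the arrays, while the next brightest HUWE1 probe set read 2617 to 3435. IQSEC2 differed by -0.19 and 0.01 and passed with neither in the main fit. With a replicate block, the shco2 differences of IQSEC2 (limma adjusted p = 0.0417) and SMC1A (0.0448) were called.

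**Figure D4:**
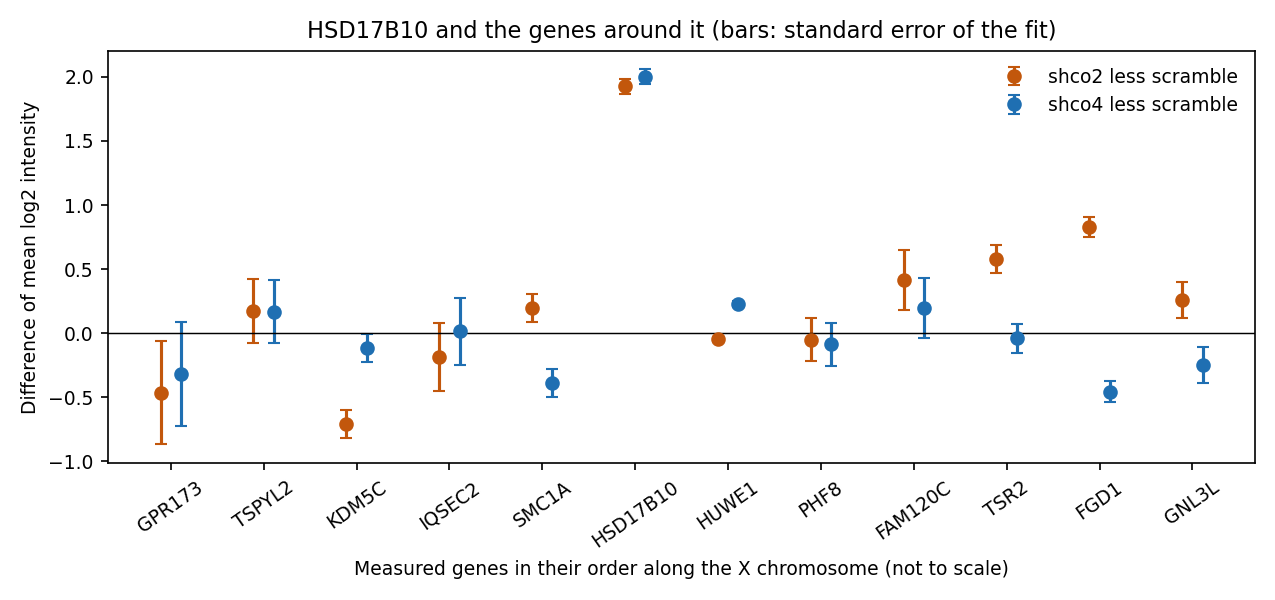
Differences of mean log2 intensity from scramble are plotted for HSD17B10 and 11 measured neighbours in their order along the X chromosome, not to scale, with the standard error of the fit as bars. HSD17B10 lies at 1.93 and 2.00, while its neighbours lie between -0.71 and 0.83.

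The genes most like HSD17B10 over the 9 arrays were BSDC1 (Pearson r = 0.97), OSTM1 (0.97), AKIRIN1 (0.97), PRUNE1 (0.96), ZFP37 (0.96) and IP6K2 (0.95), of 6327 probe sets with a range of at least 1 on the log2 scale. They were chosen for this likeness, and the points share arrays and lines, so r is a description. Their log2 differences from scramble were 0.78 to 1.46 with shco4 and 0.84 to 1.51 with shco2, smaller than those of HSD17B10. OSTM1, a lysosomal membrane protein, was at 458 to 520.0 in scramble, 775 to 971 with shco2 and 786 to 857 with shco4. The most opposite were CDCP1, a transmembrane glycoprotein (-0.99), CEMIP, a protein of hyaluronan breakdown (-0.99), and JAK1, a cytokine receptor kinase (-0.99). JAK1 was at 1944 to 2027 in scramble, 599 to 657 with shco2 and 578 to 687 with shco4. An r of at least 0.95 was reached by 8 probe sets, and an r of -0.95 or lower by 41.

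**Figure D5:**
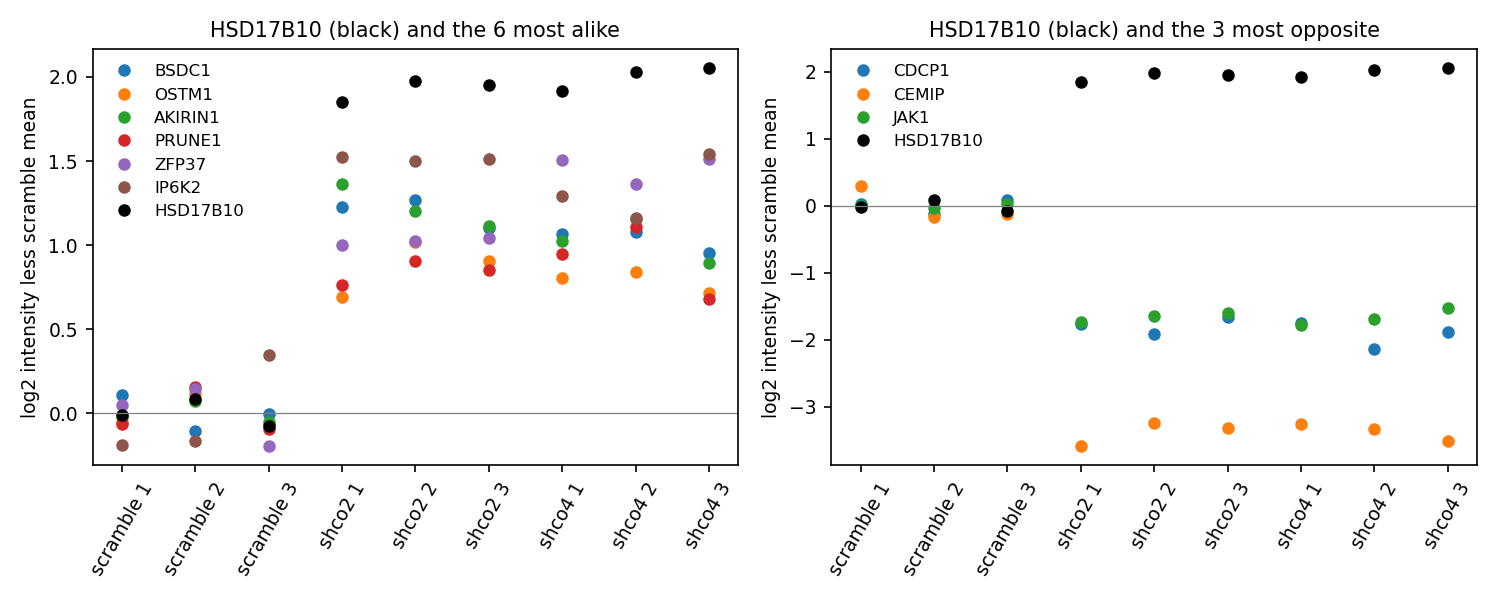
The log2 intensity on each array, less the gene's scramble mean, is plotted for HSD17B10 and the 6 genes most like it (left) and the 3 most opposite (right). The hairpin points of HSD17B10 are above those of all 6 alike genes, and CEMIP, the farthest of the opposite genes, lies at -3.38 with shco2 and -3.37 with shco4.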

How the data were processed

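RNA (200 ng per sample) had been labelled as biotin-cRNA and hybridized to Affymetrix 3′ arrays, per the labels' protocols. The deposited table holds linear intensity values, with a trimmed mean near 500.1 on each array; the software behind it is not given in the sources used here. Before taking log2, values under a floor of 16 were raised to it. Apart from 62 control probe sets, all 22215 were fitted with 1 mean per line on all 9 arrays (lmFit and eBayes, limma 3.58.1, R 4.3.3; two-sided, Benjamini-Hochberg over all probe sets, calls at an adjusted p under 0.05). A difference is in log2 units. A list uses each gene's probe set with the highest mean. Symbols came from the platform annotation, updated through RefSeq. With 3 arrays per group, their number limits the precision.

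The members and lists were chosen with earlier results of these data known. Named genes are all members, the first 4 of each list, up to 2 more per list called with both hairpins in 1 direction, and the 6 genes most like and 3 least like HSD17B10 (Pearson r over 9 arrays, 1 symbol, range of at least 1, highest value of at least 64); other called list genes were named after their values were seen. Same-numbered arrays had deviations from the group means that correlated at 0.133 to 0.236 between scramble and shco4. The values were 0.0567 to 0.289 between scramble and shco2 and 0.0576 to 0.214 between the hairpins. The numbers thus met the criterion for pairs (every r over 0.1) only for scramble and shco4. In each pair of lines, however, the same-numbered array was the closest match in 6 of 6 cases. The cutoff therefore does not show that arrays of the other pairs of lines are independent. The main fit has no term for replicate number. Its calls, counts and background shares do not account for a shared replicate effect, for scramble and shco4 included. The model was run on simulated data with independent noise on each array. That run cannot check the p-values against an effect shared by replicate number. The closing section gives the alternatives.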

Additional observations from a re-analysis of the deposited data

Results flagged for a closer look

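Each result here differed between shco4 and shco2 in the same limma fit (adjusted p under 0.05). In that comparison 31.0% of all probe sets were called, and the causes were not tested. All values are log2 differences, shco4 less shco2. Among the HSD17B genes they were HSD17B2 (1.36), HSD17B6 (-1.56) and HSD17B7 (0.88). Among other short-chain dehydrogenases they were CBR1 (-0.56), CBR4 (0.71) and HPGD (1.502), and for mitochondrial tRNA processing ELAC2 (-1.07). In branched-chain amino acid breakdown they were ECHS1 (-0.18), ACAT1 (0.15) and BCKDHA (0.82). In mitochondrial fatty acid oxidation they were HADH (-0.62), HADHA (0.73), HADHB (0.52) and ACADM (-0.70). In peroxisomal oxidation, elongation and mitochondrial synthesis of fatty acids they were ACAA1 (0.41), ACOX2 (-0.45), ELOVL5 (0.73) and NDUFAB1 (-0.40). AKR1C3 (0.59), SMC1A (-0.58) and HUWE1 (0.28) complete the list. Each value is from the brightest probe set of its gene. Other probe sets were not called for ELOVL5 (-0.47 and 0.84), ACAA1 (0.07), SMC1A (-0.01), ELAC2 (-0.68) and HUWE1 (0.24, -0.28 and -0.11). For HADH, HADHA and HPGD, some other probe sets were called and some were not, all in the listed direction. The second probe set of HSD17B6 was called lower (-0.997). Many of these calls did not hold under other settings. Quantile normalization brought HUWE1 to 0.03 (adjusted p = 0.648) and ended the ACAT1 call (0.0621). Median centring and leaving out dim probe sets ended those of ACAT1 (0.110 and 0.156) and ECHS1 (0.095 and 0.101). A floor of 1 ended those of ACAT1 (0.241), ECHS1 (0.172), ACAA1 (0.0626), ACOX2 (0.0517) and HSD17B6 (0.0625). A floor of 64 ended those of HSD17B2, HSD17B6 and HPGD, whose arrays were then all at the floor, and of ACAA1 (0.0511), which the fit of the 2 hairpin lines ended too (0.0574). Of the 9 fits that left out 1 array, 6 ended the calls of ACAA1 (adjusted p up to 0.126) and ACOX2 (0.108), 5 those of BCKDHA (0.0832) and HSD17B2 (0.0731), 4 that of HSD17B7 (0.0745) and 1 that of ECHS1 (0.0506, without shco2 replicate 1).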

How the results depend on the processing

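The HSD17B10 differences moved by less than the spread between replicates under quantile normalization, median centring, floors of 64 and 1, the filter on dim probe sets, the replicate block, fits of 2 lines, eBayes with trend and robust settings, and each array left out (1.89 to 1.97 with shco2, 1.96 to 2.04 with shco4). The count called among the other 6 members was less stable. The share of all probe sets called under each setting is not given beside these counts, so they cannot be set against a background. With shco2 it was 0, but 1 (HSD17B8) with median centring, with dim probe sets left out and in the fit of 2 lines, and 0 to 1 with an array left out. With shco4 it was 0, but 1 (HSD17B11) with the replicate block, and 0 to 1 with an array left out. Between the hairpins it was 1, but 0 with a floor of 64 and with dim probe sets left out, 2 (HSD17B2 and HSD17B11) with the replicate block, and 0 to 2 with an array left out. The causes of these changes were not tested, except that a floor of 64 left HSD17B2 at the floor on every array and the filter took HSD17B1 and HSD17B2 out. Over all probe sets, 4178 were called with shco4 and 2760 without scramble replicate 2 (range 2760 to 3938 with an array left out). Every array's deviations correlated best with its own replicate number in 6 of 6 cases for each pair of lines. The replicate block also called STS (0.00635), SMC1A (0.0448) and IQSEC2 (0.0417) with shco2. Dim signal limits HSD17B1, HSD17B2, HSD17B3, HSD17B6 and HSD17B14.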
